A study of Homo sapiens with 18 samples.

Results

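The genes described here are 10 genes of the neuronal cytoskeleton, chosen by name: the neurofilament genes NEFL, NEFM and NEFH, the related intermediate filament genes INA and PRPH, the microtubule-associated protein genes MAP2 and MAPT, the tubulin gene TUBB3, and STMN2 and GAP43 of the growing axon. Of these 10, 9 were matched by symbol to one of the 57905 Ensembl genes counted, and NEFL is not analysed here. The cells were BE(2)-m17, an established human neuroblastoma cell line. All of them carried the vector pSBbi-Hyg-APP, which expresses human APP, the precursor of amyloid beta. The ABCC1 cells also carried pSBbi-Pur with a codon-optimized ABCC1 insert, an export transporter, and the control cells, named Puro, carried the empty pSBbi-Pur. Both lines were made from the same APP-expressing cells by a separate transfection and selected with puromycin; whether a line was 1 clone is not given in the sources used here, and ABCC1 and the transfection cannot be told apart within an experiment. RNA was taken on day 4 after 14000000 cells were plated in a well, and 18 libraries were sequenced: 3 experiments, each with 3 Puro and 3 ABCC1 libraries. The labels only number the experiments, and name the library kit of the first in 2 ways. According to the methods, the first used a TruSeq RNA kit and the repeats a SMARTer kit for total RNA. One repeat used cells thawed from storage and the other a new transfection, and the labels do not say which is which. The study's methods describe weekly platings of each line, so the libraries of a group are separate cultures of 1 line, and p-values measure the spread between such cultures.

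Neurons and neuroblastoma cells hold long, thin cell bodies and axons in shape with intermediate filaments and microtubules. Neurofilaments are polymers of light, medium and heavy chains, to which alpha-internexin (INA) and peripherin (PRPH) are added, and they set the caliber of axons. Microtubules are built from tubulins such as the neuronal isotype TUBB3 and are bound by MAP2, found mostly in dendrites, and by tau, the product of MAPT, found mostly in axons. Tau forms the tangles of Alzheimer's disease. STMN2 binds free tubulin and supports axon growth, and GAP43 is a membrane-bound phosphoprotein of growth cones.

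The RefSeq promoter table (GRCh38.p14) matched 5 of the 10 genes. The promoters of GAP43 and INA are shown since both genes fell in the first experiment and have 1 window each. MAP2 also fell there, and its 3 windows, not printed, held 1 CCAAT match in all. Each window is the 250 bases before the transcription start on the plus strand, with capitals for matches on either strand. The motifs searched were the E-box CACGTG, the E-box of bHLH factors CAGCTG, the GC box GGGCGG, the CCAAT box, and the TATA box TATAAA, none of which overlapped another match.

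GAP43, chr3:115623260-115623509: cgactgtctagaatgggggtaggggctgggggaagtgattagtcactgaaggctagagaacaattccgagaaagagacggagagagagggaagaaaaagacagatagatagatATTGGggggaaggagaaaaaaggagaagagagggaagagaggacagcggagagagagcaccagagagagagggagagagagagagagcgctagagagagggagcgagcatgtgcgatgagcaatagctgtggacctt

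INA, chr10:103276888-103277137: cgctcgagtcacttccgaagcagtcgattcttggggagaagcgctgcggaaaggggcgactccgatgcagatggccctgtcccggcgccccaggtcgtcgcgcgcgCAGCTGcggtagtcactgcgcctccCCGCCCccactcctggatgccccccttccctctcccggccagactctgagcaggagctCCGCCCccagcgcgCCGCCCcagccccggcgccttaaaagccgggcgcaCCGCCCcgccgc

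The GAP43 window held 1 CCAAT match on the minus strand and had 51.6% GC. The INA window held 1 CAGCTG and 4 GGGCGG matches and had 72.8% GC. Of 35116 promoter windows of the same length, CCAAT was found in 32.01%, GGGCGG in 42.64% and CAGCTG in 13.99%, counting windows with at least 1 match.

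The libraries held 8866994 to 57937596 read pairs on genes and vector sequences, with the most in the first experiment and the fewest in the third. The ABCC1 insert had 51035 to 594404 counts in ABCC1 libraries and at most 15 in Puro libraries, as the labels give it. A set of 372 olfactory receptor genes, which neuroblastoma cells are not known to use, served as a measure of reads that do not stem from expression of the gene, in CPM (counts scaled to the TMM-normalized library size) per kilobase of exon. In Puro cells its level was 0.00486 in the first experiment, 0.576 ± 0.088 (SD, n = 3) in the second and 1.57 ± 0.0948 in the third. In ABCC1 cells it was 0.00404, 0.302 ± 0.144 and 1.24 ± 0.156, and in each experiment every ABCC1 library lay below every Puro library. The adrenergic neuroblast markers were present, with a summed level of 2573 CPM per kilobase or more in each Puro library. In Puro cells of the second and the third experiments all matched immune (5), endothelial (3), epithelial (4) and astrocyte or oligodendrocyte (5) markers lay below 3 times the olfactory level, as did 5 and 6 of 6 Schwann cell markers and 4 and 5 of 7 mesenchymal markers. In Puro cells of the first experiment only 2 of 6 Schwann cell and 1 of 7 mesenchymal markers lay below 3 times that level. So did 4 of 5 immune, 2 of 3 endothelial, 3 of 4 epithelial and 2 of 5 astrocyte or oligodendrocyte markers. The mesenchymal markers summed to 72.2 to 82.0 CPM per kilobase in these libraries.

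In Puro cells most of these genes were among the more abundant transcripts. TUBB3 was not by its counts, which leave out reads on its shared exon bases. On the scale of CPM per kilobase of exon shared with no other gene, INA came first in the first experiment at 202 ± 4.38 (SD, n = 3) and reached percentile 99.3 among the genes tested. STMN2 followed at 146, NEFM at 122, PRPH at 59.4, NEFH at 55.6 and MAP2 at 31.04. MAPT at 19.4 and GAP43 at 18.9 did not separate from each other, and TUBB3 was lowest at 2.00. Percentiles were ranked on CPM per kilobase of all exon bases, where TUBB3 had 1.48 and percentile 34.7.

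The order in the second experiment was STMN2 at 85.4, NEFM at 62.8, INA at 56.6, NEFH and PRPH both at 20.8, MAP2 at 14.6, GAP43 at 13.5, MAPT at 5.18 and TUBB3 at 1.34. The ranges of the libraries of STMN2 and NEFM overlapped there, as did those of NEFM and INA, of NEFH and PRPH, and of MAP2 and GAP43. In the third experiment NEFM at 116 and INA at 77.6 came first, followed by STMN2 at 37.0, NEFH at 31.8, PRPH at 19.97, MAP2 at 17.1, GAP43 at 13.6, MAPT at 8.94 and TUBB3 at 1.61. The ranges overlapped between NEFM and INA, STMN2 and NEFH, NEFH and PRPH, and PRPH and MAP2. The level of the olfactory receptor genes was 97.9% of the TUBB3 level in Puro cells of the third experiment, 42.9% in the second and 0.243% in the first. For the other 8 genes it was at most 17.6% in Puro cells of the third experiment, reached for MAPT.

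**Figure D1:**
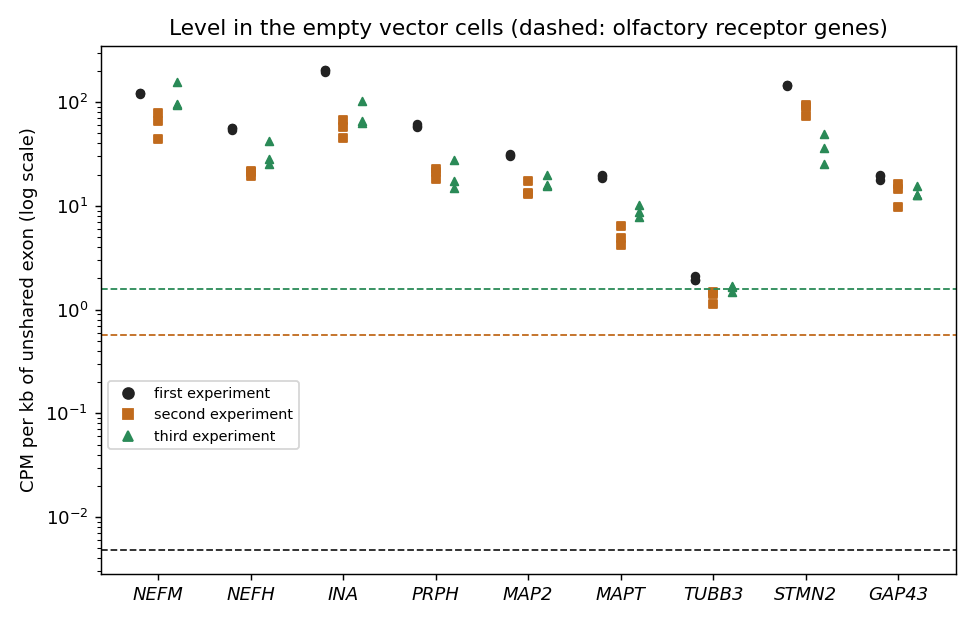
Level of each gene in the 3 Puro libraries of each experiment, in CPM per kilobase of exon shared with no other gene, on a log axis, with one point per library. The dashed line in the color of each experiment is the mean level of 372 olfactory receptor genes; TUBB3 lies near it in the third experiment.

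The low level of TUBB3 is a count and not a level of the protein, and its exons are shared. Of its 6138 exon bases, 1584 are also exon bases of ENSG00000198211 on the same strand, and that gene had 0 counts in all 18 libraries. Read pairs that fall on exons of more than 1 gene were left unassigned by the default of the counting program, and the counting did not use strand. NEFM shares 39.0% of its exon bases with the antisense gene ENSG00000272163, and PRPH shares 56.2% with TROAP-AS1. The values of TUBB3, NEFM and PRPH are therefore uncertain, and a low count of TUBB3 does not show low expression. MAPT shares 75 of 14924 exon bases with MAPT-AS1, and NEFH, INA, MAP2, STMN2 and GAP43 share none.

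GAP43 was lower in ABCC1 cells in the first and the third experiment. GAP43 (ENSG00000172020) lies on the plus strand at chr3:115342171-115440337 of GRCh37. In the first experiment its normalized level was 36.8, 41.3 and 40.5 CPM in the Puro libraries and 18.5, 17.9 and 17.1 CPM in the ABCC1 libraries. Every ABCC1 library lay below every Puro library, and the change was 2.21-fold (log2FC −1.15 ± 0.06 SE, adjusted p = 3.88e-07 by the edgeR quasi-likelihood test, adjusted by Benjamini-Hochberg over all genes tested). In the third experiment the level was 26.4, 32.3 and 26.4 CPM in Puro cells and 15.1, 12.3 and 16.5 CPM in ABCC1 cells, on 143 to 356 counts. These groups did not overlap either (log2FC −0.95 ± 0.17 SE, edgeR adjusted p = 6.75e-05). Both calls remained without any 1 of the 6 libraries.

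GAP43 measured in the second experiment 20.3, 30.2 and 34.1 CPM in Puro cells and 18.3, 21.3 and 20.6 CPM in ABCC1 cells. The groups overlapped and the log2FC was −0.49 ± 0.18 (edgeR adjusted p = 0.127). With genes required to have 10 counts in every library, it was −0.61 (edgeR adjusted p = 0.0456), and with the spread shared over all 18 libraries −0.49 (adjusted p = 0.0215). The change of effect between experiments did not pass the test (interaction adjusted p = 0.513 in edgeR).

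MAPT was lower in ABCC1 cells in the first experiment, and its values overlapped in the others. MAPT (ENSG00000186868, chr17:43971748-44105700, plus strand, GRCh37) had 297, 277 and 289 CPM in the Puro libraries and 205, 194 and 202 CPM in the ABCC1 libraries of the first experiment. All 3 ABCC1 values lay below all 3 Puro values (1.44-fold; log2FC −0.52 ± 0.04 SE, edgeR adjusted p = 5.64e-06), and each of the 14 alternative fits kept the call. The Puro libraries of the second experiment held 62.3, 95.0 and 73.3 CPM and the ABCC1 libraries 80.8, 84.4 and 80.4 CPM. In the third the values were 131, 150 and 117 CPM against 109, 105 and 123 CPM. The log2FC was 0.09 ± 0.17 in the second experiment (edgeR adjusted p = 0.787) and −0.24 ± 0.18 in the third (adjusted p = 0.56), and the interaction had an adjusted p of 0.649, so the experiments were not shown to differ.

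NEFH was higher in ABCC1 cells in the second and the third experiments. NEFH (ENSG00000100285, chr22:29876219-29887379, plus strand, GRCh37), the heavy neurofilament chain, had 72.9, 82.9 and 80.8 CPM in Puro cells and 146, 115 and 112 CPM in ABCC1 cells of the second experiment. It had 106, 159 and 95.4 CPM in Puro cells and 187, 218 and 221 CPM in ABCC1 cells of the third. In both experiments every ABCC1 library lay above every Puro library. The log2FC was 0.65 ± 0.17 in the second experiment (edgeR adjusted p = 0.0491) and 0.79 ± 0.19 in the third (adjusted p = 0.00648). In the first experiment NEFH measured 212, 213 and 206 CPM against 228, 230 and 195 CPM, and the log2FC was 0.05 ± 0.06 (adjusted p = 0.539). The interaction gave an edgeR adjusted p of 0.321, and of 0.0389 with DESeq2.

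Both NEFH calls changed when libraries were left out. In the second experiment the call was lost without 5 of the 6 libraries in turn, leaving adjusted p values of up to 0.194, and it was kept without ABCC1 replicate 3. With 10 counts required in every library the edgeR adjusted p was 0.0504 there. In the third experiment it was lost without Puro replicate 1, Puro replicate 3, ABCC1 replicate 2 or ABCC1 replicate 3. With the log2 olfactory level of each library as a covariate, the log2FC was 0.36 in the second experiment (edgeR adjusted p = 0.871) and 0.29 in the third (adjusted p = 0.782). The olfactory level was 4.95% of the NEFH level in Puro cells and 2.25% in ABCC1 cells of the third experiment, and subtracting it from each library, a step chosen after seeing the data, gave 0.84.

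**Figure D2:**
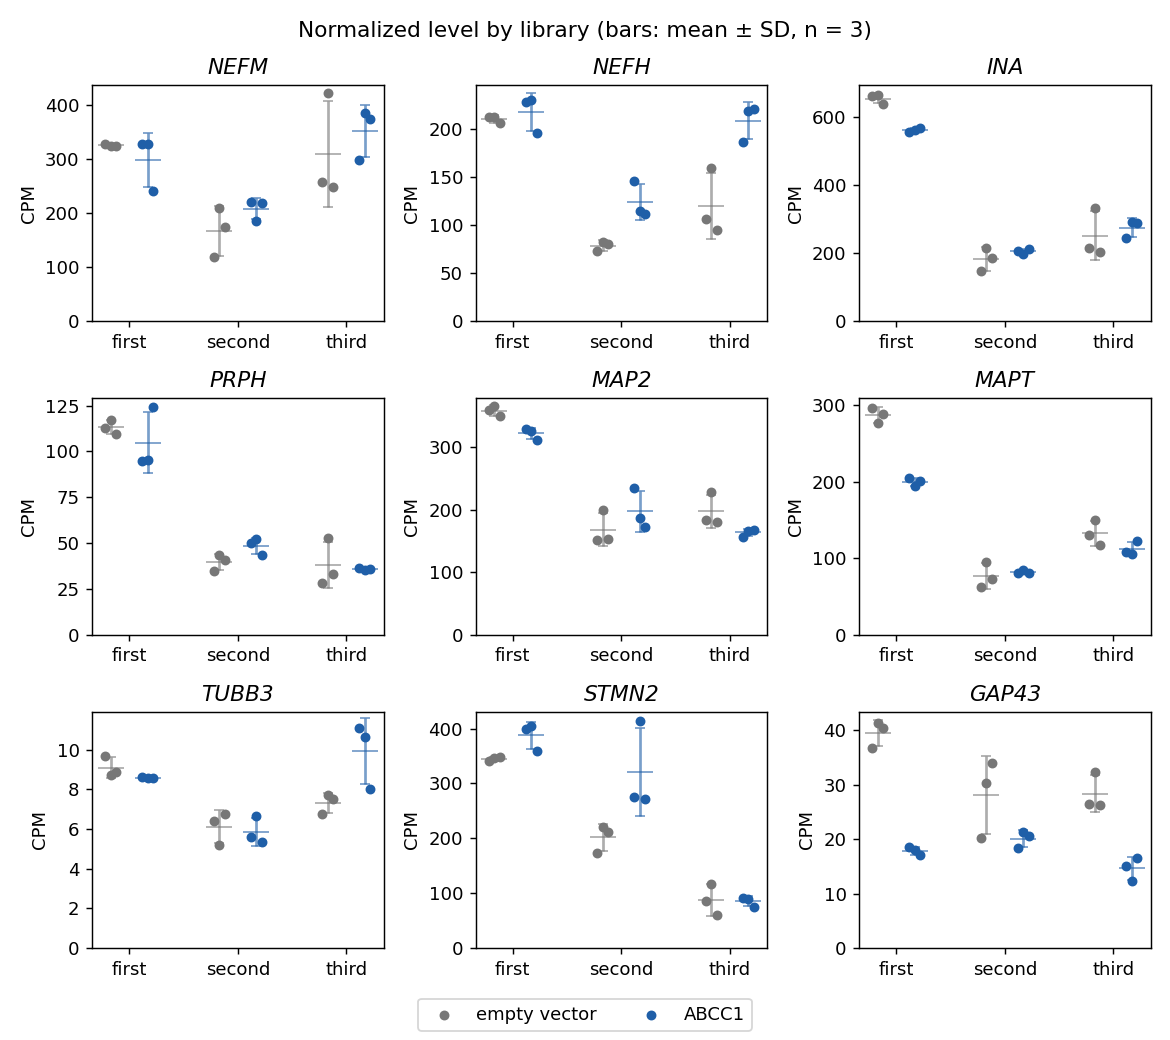
CPM of the 9 genes in each library (y axis from 0) against experiment (x axis), with Puro libraries in grey and ABCC1 libraries in blue; dashes and bars are the mean ± SD of 3 libraries. In GAP43 the blue points lie below the grey ones in the first and the third experiments, and in NEFH above them in the second and the third.

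INA and MAP2 fell in the first experiment, by less than MAPT. INA (ENSG00000148798, chr10:105036920-105050108, plus strand, GRCh37) had 659, 662 and 636 CPM in the Puro libraries and 554, 561 and 567 CPM in the ABCC1 libraries, without overlap (log2FC −0.22 ± 0.04 SE, edgeR adjusted p = 0.00151). MAP2 (ENSG00000078018, chr2:210288782-210598842, plus strand, GRCh37) had 359, 367 and 350 CPM against 330, 325 and 312 CPM, also without overlap (log2FC −0.15 ± 0.04 SE, edgeR adjusted p = 0.0122). In the second and the third experiments INA had log2FC values of 0.17 and 0.13 (edgeR adjusted p = 0.594 and 0.814). MAP2 had 0.23 and −0.27 there (edgeR adjusted p = 0.472 and 0.527). With the spread shared over all 18 libraries or with the olfactory covariate, neither INA nor MAP2 was called in the first experiment. The log2FC of INA was −0.22 and −0.20 in these fits, and that of MAP2 −0.15 and −0.10.

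STMN2 rose in the first experiment, from 342, 346 and 349 CPM to 400, 404 and 359 CPM (log2FC 0.17 ± 0.05 SE, edgeR adjusted p = 0.0218). That call was kept without ABCC1 replicate 3 and lost without any 1 of the other 5 libraries, with an adjusted p of at most 0.0852. With the spread shared over all 18 libraries the edgeR adjusted p was 0.664, and with the olfactory covariate 0.353, at a log2FC of 0.17 in both. STMN2 measured, in the second experiment, 174, 220 and 211 CPM in Puro cells and 276, 413 and 272 CPM in ABCC1 cells, without overlap, and did not pass the test (log2FC 0.67 ± 0.20 SE, edgeR adjusted p = 0.0715). DESeq2 gave an adjusted p of 0.00563 and limma-voom 0.0234 there. In the third it measured 86.4, 117 and 59.4 CPM against 91.6, 90.3 and 75.0 CPM (log2FC −0.03, edgeR adjusted p = 0.959), a value whose sign turned under other scalings.

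NEFM, PRPH and TUBB3 passed the test in no experiment. In the first experiment NEFM had 328, 324 and 325 CPM against 327, 328 and 242 CPM, and PRPH had 113, 117 and 109 CPM against 94.9, 95.4 and 124 CPM, so ABCC1 replicate 3 lay apart from the other ABCC1 libraries in both genes. Without that library PRPH was called (log2FC −0.25, edgeR adjusted p = 1.01e-05), as was NEFH (0.12, adjusted p = 0.00242). In the third experiment Puro replicate 2 was the highest of its group in all 9 genes. Without it NEFM was called as higher, with an edgeR adjusted p of 0.0241. The log2FC values of NEFM were −0.12, 0.32 and 0.19 in the first, the second and the third experiments, those of PRPH −0.11, 0.29 and −0.08, and those of TUBB3 −0.09, −0.06 and 0.44. TUBB3 rested on 72 to 496 counts per library, and its sign in the second experiment turned with the scaling.

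**Figure D3:**
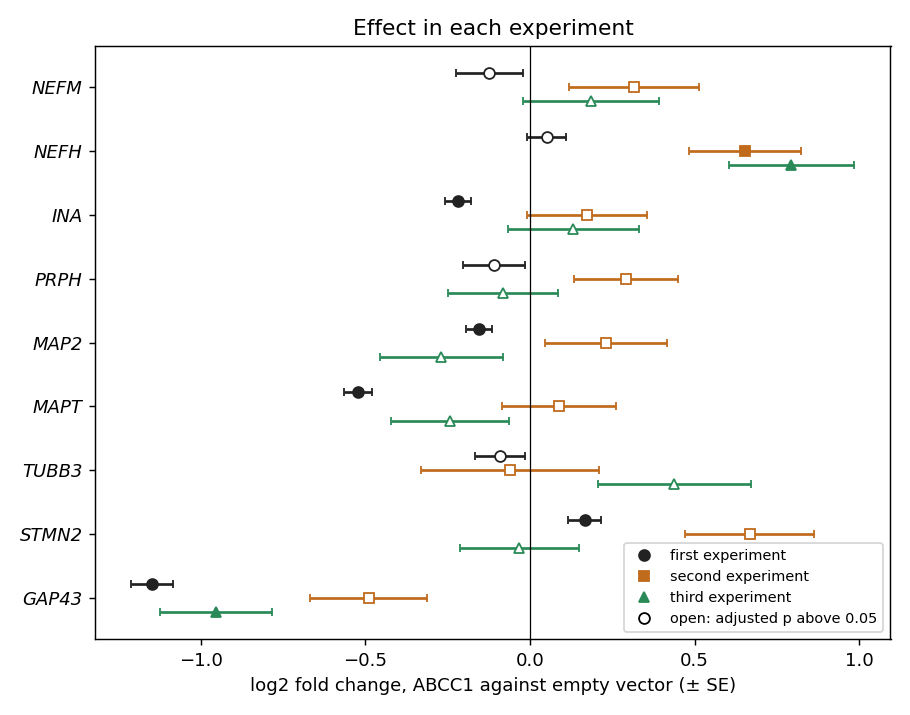
The log2FC of ABCC1 against Puro with its SE for the 9 genes in the 3 experiments; filled symbols passed an adjusted p of 0.05. GAP43 lies below 0 in all 3 experiments, filled in the first and the third, and NEFH lies above 0 with filled symbols in the second and the third.

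By count, 5 of the 9 genes passed in the first experiment, 1 higher and 4 lower, where 37.6% of all 16995 genes tested passed (17.9% higher and 19.7% lower). In the second experiment 1 passed, higher, where 1.7% of 34091 genes did (1.25% higher and 0.458% lower; 425 and 156 genes, or 350 and 438 with 10 counts required in every library and 593 and 766 without ABCC1 replicate 3). In the third 2 passed, 1 in each direction, where 2.8% of 36509 genes did (2.03% higher and 0.767% lower). These were 741 and 280 genes, or 966 and 199 with RLE size factors and 29 and 124 with the olfactory covariate. The groups did not overlap in 6 of the 9 genes in the first experiment, 1 higher and 5 lower, against 50.4% of genes (24.7% higher and 25.7% lower). They did not overlap in 3 in the second, all higher, against 29.8% (13.5% and 16.4%), and in 4 in the third, 2 in each direction, against 19.5% (8.59% and 10.9%). The median log2FC of the 9 genes was −0.12, 0.23 and −0.03, beside medians of all genes of 0.01, −0.19 and −0.09. In the second experiment RLE size factors raised the median of all genes by 0.11 to −0.08. Relative to the median of all genes, NEFH was at 0.84, STMN2 at 0.86 and GAP43 at −0.30 there. Without that shift they were at 0.65, 0.67 and −0.49, so these values depend on the genes taken as reference. In the interaction of experiment and line none of the 9 was called by edgeR, where 1.19% of 46225 genes were. NEFH and GAP43 had an unadjusted p below 0.05 (0.0126 and 0.0388), DESeq2 called NEFH, and limma-voom with a spread for each experiment, also chosen after seeing the data, called none.

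Other cytoskeleton genes were taken from 7 lists with 134 matched genes of 135. Both they and the members were chosen with earlier results of these data known. Their shares beside those of all genes are therefore descriptive only. In the first experiment 62 of 125 tested passed, 14 higher and 48 lower, or 49.6% beside 37.6% of all genes tested, with a median log2FC of −0.08 beside 0.01. In the second 2 of 134 passed (1.49% beside 1.7%), and in the third 5 of 134, 4 higher and 1 lower (3.73% beside 2.8%). The median log2FC of the list genes was 0.20 in the second experiment and −0.03 in the third, beside −0.19 and −0.09 for all genes. Of the intermediate filaments 2 rose and 2 fell among 8 in the first experiment, of the tubulins 1 rose and 4 fell among 14, and of the other microtubule-binding proteins 2 rose, 15 fell and 17 did not pass among 34.

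Of 12 growth cone genes tested in the first experiment, 7 fell, 1 rose and 4 did not pass, where 19.7% of all genes tested fell and 17.9% rose. BASP1, a growth cone protein of the same membrane-bound kind as GAP43, fell (log2FC −0.996, edgeR adjusted p = 8.72e-07), as did RTN4 (−0.48) and NCAM1 (−0.32), and TIAM1, an activator of Rac, rose (0.49). DCX, which binds microtubules in young neurons, fell (log2FC −0.55, edgeR adjusted p = 8.23e-06). DPYSL2 fell by 0.28 and MAP7 by 0.38 on the log2 scale, and CLIP2 rose (0.39). Among tubulins TUBA1A and TUBA1B fell by 0.48 each and TUBB by 0.22, while TUBG2 rose (0.44).

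The counts of the next lists stand beside the same 37.6% of all genes that passed in the first experiment, 19.7% lower and 17.9% higher. Of 17 spectrins, ankyrins and partners, 8 fell and 1 rose, with ANK3 at −0.58, NFASC at −0.41, ADD2 at −0.33 and SPTBN1 at −0.26 among those that fell. Of 17 axonal motors 6 fell and 2 rose, with KLC2 at −0.32, DCTN2 at −0.28 and KIF5A at −0.21 lower and KIF5C at 0.16 higher. Of 23 kinases and phosphatase subunits that act on tau, 6 fell and 5 rose. MARK4 fell by 0.38 on the log2 scale, and PPP2R2C (0.47), CAMK2G (0.30) and PPP2R2B (0.50) rose. LMNB1 (−0.24) and SYNM (−0.24) fell, and KRT19 rose (0.40), a call lost without Puro replicate 1, Puro replicate 3 or ABCC1 replicate 2. Of the 29 genes of these lists named here and called in the first experiment, 9 stayed called with the spread shared over all 18 libraries and 12 with the olfactory covariate. BASP1, DCX, TIAM1, TUBA1A, CLIP2, PPP2R2C and NES stayed called in both. Of the 19 that fell in the first experiment, 13 had a log2FC above 0 in the second and 1, KIF5A, in the third. Among them SYNM was at 0.51 in the second experiment with every ABCC1 library above every Puro library (edgeR adjusted p = 0.0835), MARK4 at 0.35, DCX and KIF5A at 0.25 and NFASC at 0.22. Of the 10 that rose, 9 had a log2FC above 0 in the second and 9 in the third. Of the 12 adrenergic markers 7 fell and 2 rose in the first experiment, and of 6 mesenchymal markers tested 3 fell and 2 rose, beside 37.6% of all genes that passed in either direction. In the third experiment 2 of the 12 adrenergic markers fell and 1 rose, where 2.8% of all genes passed. The part of these markers in the cytoskeleton values was not tested.

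NES and CDK5R1 were the 2 genes of these lists that passed in the same direction in at least 2 experiments, and both were higher in all 3. NES encodes nestin, the intermediate filament of neural precursors. It had 55.6, 57.1 and 58.3 CPM in Puro cells and 122, 120 and 94.7 CPM in ABCC1 cells of the first experiment, 43.1, 37.7 and 37.4 against 79.1, 67.8 and 60.1 CPM in the second, and 46.4, 64.7 and 44.4 against 78.1, 92.9 and 96.1 CPM in the third. No group overlapped the other in any experiment. The log2FC was 0.98, 0.81 and 0.78 (edgeR adjusted p = 3.23e-05, 0.0179 and 0.00226).

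CDK5R1 encodes p35, the activator of CDK5, a kinase that phosphorylates tau. It had 22.8, 22.6 and 21.2 CPM in Puro cells and 28.5, 26.8 and 31.3 CPM in ABCC1 cells of the first experiment. In the second the values were 9.64, 7.43 and 9.58 against 18.8, 16.3 and 16.2 CPM, and in the third 9.56, 13.5 and 4.69 against 17.3, 19.7 and 18.4 CPM. The ABCC1 values lay above all Puro values in each experiment, with a log2FC of 0.38, 0.94 and 0.98 (edgeR adjusted p = 0.0013, 0.0137 and 0.0012). In the second experiment the NES call was kept without 2 of the 6 libraries in turn and that of CDK5R1 without 3. In the third the NES call was lost without Puro replicate 3 or ABCC1 replicate 3, and that of CDK5R1 without Puro replicate 3. With the olfactory covariate NES had a log2FC of 0.60 in the second experiment (edgeR adjusted p = 0.676) and 0.30 in the third (adjusted p = 0.756), and CDK5R1 had 0.85 (adjusted p = 0.48) and 0.49 (adjusted p = 0.686). In the first experiment NES kept its call with it (log2FC 1.01, edgeR adjusted p = 0.00582), and CDK5R1 did not (0.46, adjusted p = 0.06). The CDK5R1 level in Puro cells of the third experiment lay below 3 times the olfactory level.

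**Figure D4:**
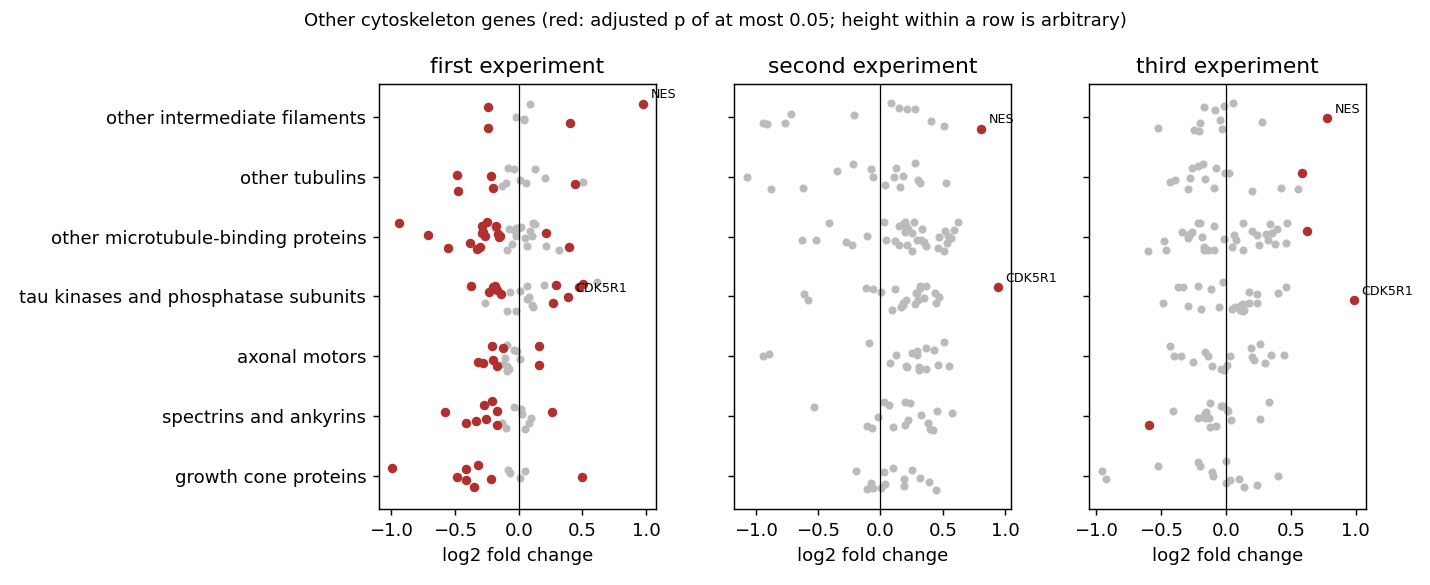
The log2FC of the genes of 7 other cytoskeleton lists in each experiment, by list, with genes past an adjusted p of 0.05 in red. NES and CDK5R1 are red and positive in all 3 panels.

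The other genes called in the third experiment, named after their values were seen, were TUBB6 (log2FC 0.59, edgeR adjusted p = 0.0276), MAP1S (0.62, adjusted p = 0.0185) and ADD3 (−0.59, adjusted p = 0.0263).

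Genes with profiles most like those of a member were sought over the 18 libraries, centered within each experiment, among 13637 genes. Libraries share depth and line, so these values describe likeness only. For GAP43 they were PLCL1 (r = 0.96), TSPYL4 (0.957) and TOX3 (0.955), for MAPT they were ARHGAP29 (0.938), DNAJC13 (0.936) and CCNK (0.935), and for NEFH the first was VIRMA (0.986).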

How the data were processed

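RNA of 18 libraries of BE(2)-m17 cells was counted per gene. Per the submitters' processing notes, the authors made FASTQ files with bcl2fastq 2.18, aligned them with STAR 2.7.3a to GRCh37 and counted read pairs on exons with featureCounts (Subread 2.0.0), without regard to strand. The deposited values are raw counts for 57905 Ensembl genes, 92 spike-ins and 6 vector sequences; spike-ins were left out. The members and lists were chosen with earlier results of these data known. All 9 matched members and the lists were named by fixed rules: of each other cytoskeleton list, up to 4 genes with the smallest adjusted p in the first experiment among those called, and every gene called the same way in at least 2 experiments. The 3 genes most like each called member were taken by Pearson r.

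Each experiment was fitted in R 4.3.3 with edgeR 4.0.16 (filterByExpr at a minimum count of 10, TMM, robust quasi-likelihood test), with Benjamini-Hochberg adjustment across every gene tested; a gene was called at an adjusted p of at most 0.05. A joint fit of all libraries tested the interaction. Exact permutation tests of 3 against 3 libraries cannot give a p below 0.1. In simulated data with 200 genes changed by a log2FC of 1, 98%, 93.5% and 90% were recovered in the first, the second and the third experiments and 53.5% in the interaction. The simulation used the same fixed spread in every experiment and changed only genes with higher mean counts. It does not measure recovery of smaller changes, of low counts or under the spread of these data. Alternatives used DESeq2 1.42.0, limma 3.58.1 and other filters, scalings and library sets. The replicate numbers were checked for pairing: correlations of same-numbered libraries averaged −0.093, −0.085 and 0.053, so the numbers were not used as pairs. Pairs of libraries of a group differed by a chi-square of 1.49 to 22.7 per degree of freedom, so none was counted as a duplicate.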

Additional observations from a re-analysis of the deposited data

How the results depend on the processing

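Under the alternatives, the number of members called was 5 in the first experiment, 2 with the spread shared across all libraries or with the olfactory covariate, and 4 to 7 when a library was left out. In the second it was 1, but 2 with DESeq2, limma-voom or no filter, 3 with the shared spread, 0 with the replicate block (NEFH adjusted p = 0.0784) or the olfactory covariate, and 0 to 2 when a library was left out. With 10 counts in every library it was again 1, but GAP43 in place of NEFH. In the third it was 2, but 1 with the olfactory covariate and 1 to 3 when a library was left out. Members differing between experiments were 0, but 1 with DESeq2, and 0 to 1 when a library was left out (without RNA3_Puro replicate 2, NEFH had an adjusted p of 0.0149). Blocking on the replicate number, which did not pair the libraries, left 5, 0, 2 and 0 in these 4 counts. Genes called overall changed from 6382 to 1788 (shared spread) and 1471 (olfactory covariate) in the first experiment. In the second, 581 became 2727 with DESeq2, 1307 with limma-voom, 1086 with RLE, 1402 with no filter, 5780 with the shared spread, 12 with the covariate and 8 to 1359 when a library was left out. In the third, 1021 became 1553 with DESeq2, 1725 with 10 counts in every library, 1885 with the block, 153 with the covariate and 394 to 2762 when a library was left out. The cause was not tested.

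Reversed values all belonged to genes that were not called. In the first experiment NEFM ranged from −0.19 to 0.010 when a library was left out. In the second MAP2 was −0.12 with the covariate, MAPT −0.028 with 10 counts in every library and −0.016 to 0.28 when a library was left out, and TUBB3 0.051 with DESeq2 and with RLE, 0.015 with the covariate, 0.36 with the olfactory level subtracted (chosen after seeing the data) and −0.16 to 0.040 when a library was left out. In the third NEFM was −0.45 and INA −0.40 with the covariate, PRPH −0.22 to 0.24 when a library was left out, and STMN2 0.027 with DESeq2 and with RLE, 0.018 with limma-voom, 0.0063 with 10 counts in every library, 0.014 with the replicate block and −0.21 to 0.24 when a library was left out. TUBB3 in the third experiment was 4.82 with the olfactory level subtracted, where its level lies at that background. The third experiment had the fewest read pairs, and TUBB3 had 72 to 130 counts per library there. The part of depth in its values was not tested.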
